A study of Mus musculus with 2 samples.

Results

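Slco1c1, Dio2, Thra, Thrb, Klf9 and Hr, the 6 genes described here, cover steps of thyroid hormone signalling from entry into the brain to the response of target genes. They were chosen by symbol, and each matched 1 of the 32285 genes in the counts of both libraries. The question was which cells of the striatum, a deep forebrain region, carried the messenger RNA of each step.

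As background, the thyroid gland releases mainly the prohormone thyroxine, which enters the brain through membrane transporters of the vessel wall and of astrocytes. In the brain, the type 2 deiodinase removes an iodine atom from thyroxine and so makes triiodothyronine, the active hormone. Triiodothyronine binds nuclear receptors that sit on DNA, often together with a retinoid X receptor, and that recruit corepressors when empty and coactivators when bound. In the brain the hormone is known for its part in myelination and in the maturation of neurons. Slco1c1 encodes the transporter OATP1C1, Dio2 the type 2 deiodinase, and Thra and Thrb the alpha and beta receptors. Klf9 encodes a transcription factor that is induced by the hormone, and Hr encodes a corepressor that binds the receptors and is itself hormone responsive.

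The samples were 2 single-cell RNA libraries of 1 group, the striatum of untreated adult mice, called here library 1 and library 2. The labels give a C57/Bl6J strain, C57BL/6NTac in the protocol, and an age of 8 to 10 weeks. The labels call the cells glia enriched: tissue was digested with pronase, myelin and debris were removed, and non-neuronal cells were captured preferentially, so cell numbers here are not those of the tissue. How many mice entered each library, and which of both chemistry versions each used, is not given in the labels, and the spread between the libraries may therefore be technical. There was no treated group, and the comparisons are between cell classes and between astrocytes with and without Crym.

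The libraries held 6978 and 5437 cell barcodes with 44597660 and 37982720 unique molecular identifiers (UMIs, 1 per captured RNA molecule), and 9 barcodes occurred in both. After removal of barcodes with under 300 genes and of marked doublets, 11995 cells remained. Clusters made without the 6 members and without 33 other genes of the pathway were named from marker genes, which gave 9 classes that held 20 or more cells in each of both libraries: astrocyte-, oligodendrocyte-, microglia-, neuroblast-, endothelial-, neuron-, oligodendrocyte precursor (OPC)-, mural- and macrophage-like. Each class had at least 3 of its own markers raised. Within the classes, 65 mural-like cells (cluster 24) were led by endothelial genes, and haemoglobin genes led the endothelial-like cluster 1 and OPC-like cluster 18. Other clusters also had genes of another class among their 10 leading genes. These were Nrgn, Tac1, Camk2a and Penk in astrocyte-like cluster 5 (701 cells) and Npy, Crym and Aldoc in endothelial-like cluster 8 (529 cells). Microglia-like cluster 9 (494 cells) had Cryab, Ptgds and Mal. Levels are CPM values, the UMIs of a gene as a part of all UMIs of a class in a library on the usual CPM scale, and are compared only between classes for the same gene. Differences are log2 values of a class minus the mean of the other classes ± SE, from edgeR's quasi-likelihood test with n = 2 libraries and Benjamini-Hochberg adjustment over all 15141 genes tested. edgeR's TMM scaling assumes that most genes do not differ. Scaling by library size alone shifted the median difference over all genes by -0.43 in oligodendrocyte-like, -0.41 in microglia-like, -0.15 in macrophage-like, 0.15 in neuroblast-like, 0.32 in neuron-like and 0.46 in OPC-like cells. It changed the share of calls that were higher from 60.1% to 35.1% in oligodendrocyte-like, from 60.3% to 37.4% in microglia-like, from 53.5% to 43.4% in macrophage-like, from 46.7% to 63.7% in neuron-like and from 53.1% to 81.0% in OPC-like cells.

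Each step had its own distribution. Slco1c1 was highest in endothelial-like cells and next in astrocyte-like cells, and Dio2 in astrocyte-like cells. Thra and Hr were highest in oligodendrocyte-like cells, Thrb in neuron-like, astrocyte-like and OPC-like cells, and Klf9 in astrocyte-like, mural-like and endothelial-like cells. Of the 54 comparisons of a member in a class with the mean of the other classes, 37 passed at an adjusted p of 0.05, with 19 higher and 18 lower. Over all genes tested, 68628 of 136269 such comparisons passed, so a call by itself does not set a member apart.

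**Figure D1:**
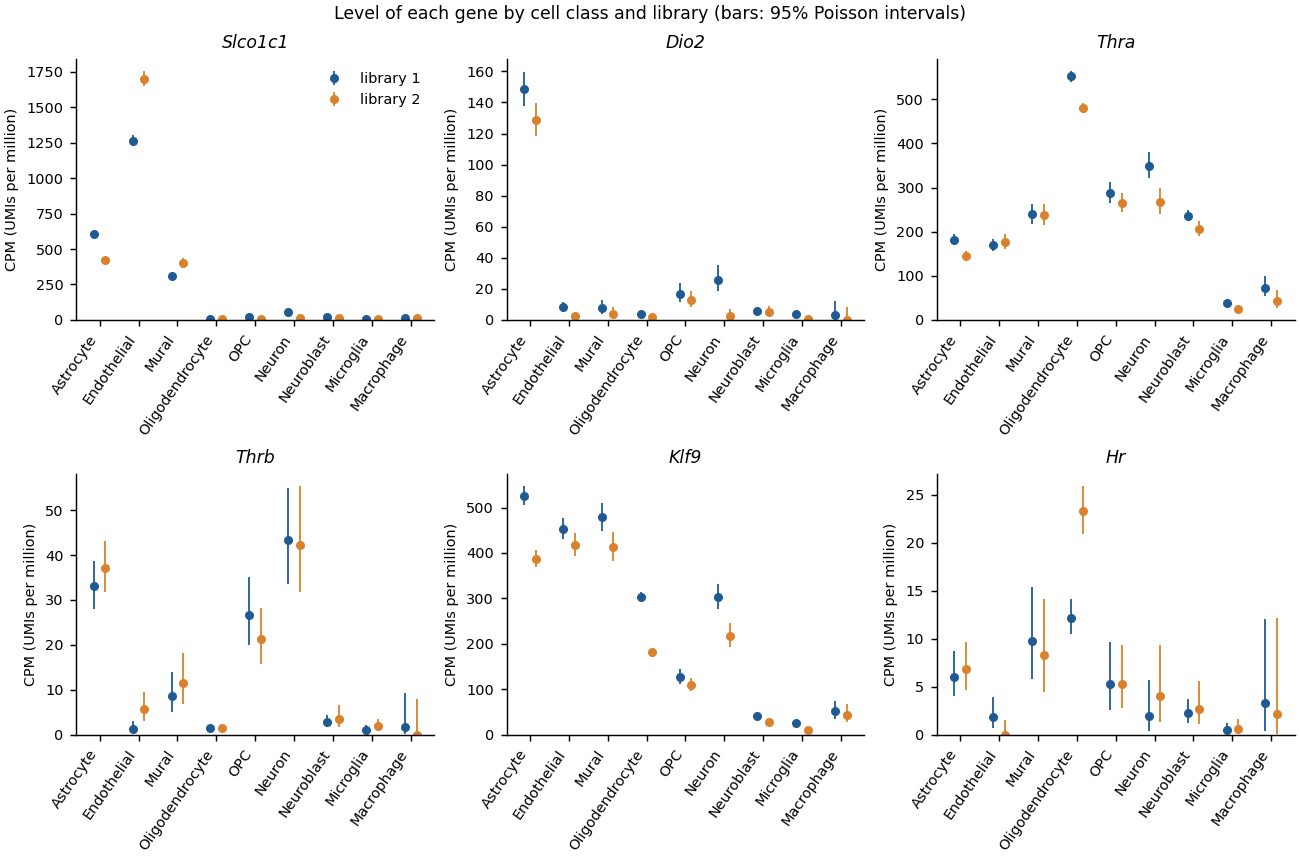
Level of each of the 6 genes in 9 cell classes, in CPM on a linear axis for each gene, with a point for each library. The points of Dio2 stand high only in astrocyte-like cells, at 148 and 129 CPM, whereas those of Klf9 are high in several classes.

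By class, the members can be read against all genes. In astrocyte-like cells 5 members were higher and 0 lower, where 28.8% of all genes tested were higher and 24.8% lower. In microglia-like cells 0 were higher and all 6 lower, against 34.3% and 22.6% of all genes. These classes stood farthest from the share over all genes. In mural-like cells 4 members were higher and 0 lower, against 23.2% and 17.9%. In neuron-like cells 3 were higher and 0 lower, against 26.2% and 29.9%. In oligodendrocyte-like cells 3 were higher and 3 lower, against 35.4% and 23.5%. The members of this class moved apart, with the receptor Thra, Klf9 and the corepressor Hr above and the transporter, the deiodinase and Thrb below. In endothelial-like cells 2 were higher and 1 lower, against 26.5% and 20.0%. In OPC-like cells 2 were higher and 2 lower, against 25.8% and 22.8%. Neuroblast-like cells, the newly formed neurons and their dividing progenitors, had 0 higher and 3 lower, against 30.3% and 28.4%. In macrophage-like cells 0 were higher and 3 lower, against 17.6% and 15.3%. With 6 members in a class these counts are descriptions. The median difference of the 6 members was 2.31 in astrocyte-like cells, beside -0.11 over all genes tested there, and -2.19 in microglia-like cells, beside -0.03 over all genes.

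**Figure D2:**
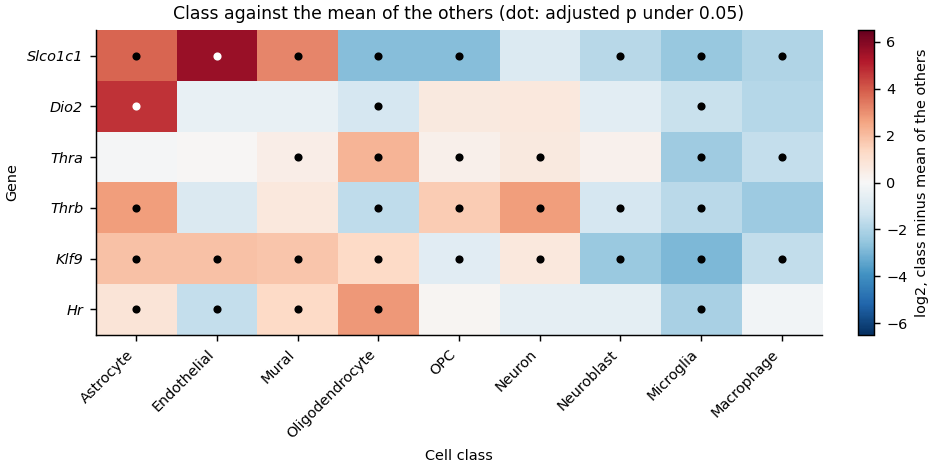
Log2 difference of each of the 6 genes between a class and the mean of the other classes, from the edgeR fit to both libraries, as a heat map with genes in rows and classes in columns. Dio2 has a large positive value in the astrocyte-like column alone (4.69), and every member is below 0 in the microglia-like column.

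Slco1c1, the transporter that carries thyroxine, lies at chr6:141524368-141570177 on the plus strand (GRCm38, identifier ENSMUSG00000030235) and has 3 coding transcripts. It reached 1264 CPM in endothelial-like cells of library 1 and 1699 CPM in library 2, in astrocyte-like cells 607 and 423 CPM, and in mural-like cells 310 and 405 CPM. The other 6 classes were between 3.33 and 56.9 CPM, so both libraries of these 3 classes lay above every value of the rest. The difference was 5.64 ± 0.22 in endothelial-like cells (edgeR adjusted p = 6.7e-13) and 3.78 ± 0.23 in astrocyte-like cells (edgeR adjusted p = 4.1e-10). Endothelial-like cells exceeded astrocyte-like cells by 1.65 ± 0.36 (edgeR adjusted p = 0.00086). The difference between astrocyte-like and mural-like cells did not pass the test (0.53 ± 0.36, edgeR adjusted p = 0.24). The gene was lower in oligodendrocyte-like, OPC-like, microglia-like, macrophage-like and neuroblast-like cells, by -2.75, -2.76, -2.45, -1.95 and -1.80. The macrophage-like call was lost under 4 alternatives, with an adjusted p of 0.050 to 0.089. In neuron-like cells the libraries stood far apart, at 56.9 and 11.98 CPM, and the difference of -0.89 ± 0.39 did not pass the test (edgeR adjusted p = 0.071). From the neuron-like class down, no neighbours in the order of levels differed.

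The Slco1c1 level of the mural-like class came almost wholly from cluster 24. Its 29 and 36 cells held 94.3% and 94.7% of the Slco1c1 UMIs of the class, at 998 and 1126 CPM, and had high median totals of 17500 and 12690 UMIs per cell. In the 3 other mural clusters the level was 39.5 and 33.6 CPM in the pericyte-like, 11.2 and 28.8 CPM in the smooth muscle-like and 33.5 and 47.7 CPM in the fibroblast-like cells. These lie far below the endothelial-like level. The class as a whole was higher by 3.19 ± 0.25 (edgeR adjusted p = 1.4e-08). With the cells led by endothelial or fibroblast genes left out, a choice made after seeing the data, mural-like cells had 23.9 and 30.7 CPM and the difference became -0.50 (edgeR adjusted p = 0.45). The 8 endothelial markers summed over the mural-like class reached 22.2% and 22.8% of their endothelial-like level, with all 8 detected, beside 24.5% and 23.8% for Slco1c1. In astrocyte-like cells the same markers summed to 0.733% and 0.190%, whereas Slco1c1 stood at 48.0% and 24.9% of its endothelial-like level.

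Within the astrocyte-like class, Slco1c1 was present in each of the 3 larger clusters, at 706 and 554 CPM in cluster 3, 704 and 456 CPM in cluster 4 and 438 and 326 CPM in cluster 5. The ependymal-like cluster 21, cells that carried markers of the ciliated lining of the ventricles, had 174 and 105 CPM. It stood below the other clusters in both libraries. With every cell thinned to 1000 UMIs, 68.9% and 78.6% of endothelial-like cells held a UMI of Slco1c1, and 41.5% and 33.5% of astrocyte-like cells. Oligodendrocyte-like cells had the lowest mean share of the classes at this depth, from 1.22% and 0.601%. The part of free RNA in these shares was not tested. The intervals on all such shares cover counting error only.

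Dio2, the activating enzyme, lies at chr12:90724552-90738438 on the minus strand (ENSMUSG00000007682), opposite the gene Gm26512. The 250 bases before the RefSeq start of Dio2 (GRCm38.p6, chr12:90739039-90739288, minus strand) and those before a RefSeq start of Thrb (chr14:17660710-17660959, plus strand) are printed because these windows held 1 of the motifs searched. Capitals mark the match, TGACGTCA in Dio2 and AGGTCA in Thrb.
Dio2: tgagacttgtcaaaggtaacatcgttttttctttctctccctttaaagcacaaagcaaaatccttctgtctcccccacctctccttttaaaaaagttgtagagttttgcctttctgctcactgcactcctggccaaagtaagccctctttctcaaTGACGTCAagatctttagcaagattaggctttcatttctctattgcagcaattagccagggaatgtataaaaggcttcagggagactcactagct
Thrb: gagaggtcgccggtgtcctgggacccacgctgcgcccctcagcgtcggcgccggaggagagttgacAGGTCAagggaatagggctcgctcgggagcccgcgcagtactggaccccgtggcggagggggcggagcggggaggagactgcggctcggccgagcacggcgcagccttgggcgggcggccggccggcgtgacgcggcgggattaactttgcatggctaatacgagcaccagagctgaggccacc
TGACGTCA is the cyclic AMP response element, and began 95 bases before the RefSeq start of Dio2. AGGTCA is the core hexamer that nuclear receptors read, and began 184 bases before this RefSeq start of Thrb. These starts are not the ends of the gene spans given in the text. The Dio2 window lies outside and apart from its span, and the Thrb window inside its span. A second RefSeq window of Thrb (chr14:17981394-17981643) held none of the motifs. Both strands were searched over 32851 RefSeq promoters, of which 1.55% held TGACGTCA and 14.0% AGGTCA. The paired arrangement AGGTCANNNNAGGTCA, which contains the hexamer, occurred in 5 promoters and in none of the members. Entries were found for 4 of the 6 members, Slco1c1, Dio2, Thrb and Klf9. A match describes these letters only.

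Dio2 had 148 CPM in astrocyte-like cells of library 1 and 129 CPM in library 2, from 692 and 600 UMIs. OPC-like cells followed with 16.7 and 12.9 CPM. Neuron-like cells had 25.8 CPM in library 1 and 2.40 CPM in library 2, that is 40 and 3 UMIs. The remaining 6 classes were at 8.03 CPM or less in both libraries. No class overlapped with the astrocyte-like values. The difference was 4.69 ± 0.23 in astrocyte-like cells (edgeR adjusted p = 1.4e-11), and astrocyte-like cells exceeded OPC-like cells by 3.61 ± 0.38 (edgeR adjusted p = 6.2e-07). Oligodendrocyte-like cells were lower by -1.08 ± 0.45 (edgeR adjusted p = 0.039) and microglia-like cells by -1.43 ± 0.54 (edgeR adjusted p = 0.022). Both calls were lost without the replicate block, at adjusted p = 0.11 and 0.081. None of the other neighbours in the order of levels differed. Summed astrocyte markers, 10 genes that were all detected, stood in OPC-like cells at 8.20% and 6.28% of their astrocyte-like level, beside 11.3% and 9.99% for Dio2. In neuron-like cells they stood at 10.2% and 3.83%, beside 17.4% and 1.86% for Dio2. Their part in the Dio2 values of these 2 classes was not tested.

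Among astrocyte-like clusters Dio2 ran from 80.8 to 191 CPM in the 3 larger clusters, and was at 45.8 and 27.3 CPM in the ependymal-like one. At 1000 UMIs per cell, 13.7% and 13.04% of astrocyte-like cells held a UMI of Dio2, whereas the share in microglia-like cells was 0.294% in library 1 and 0 of 969 cells in library 2.

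Slco1c1 and Dio2 UMIs were found together in astrocyte-like cells. At 1000 UMIs per cell, Dio2 was found in 16.7% (exact 95% interval 13.3 to 20.6) of 430 astrocyte-like cells with a Slco1c1 UMI and in 11.6% (9.13 to 14.4) of 605 without one in library 1. In library 2 the shares were 15.1% (11.3 to 19.6) of 311 cells and 11.99% (9.54 to 14.8) of 617 cells. The share was higher beside Slco1c1 in both libraries, by 5.17 and 3.12 percentage points, but the intervals overlapped. At 2000 UMIs per cell the shares were 27.3% and 17.7% in library 1 and 23.6% and 16.6% in library 2. At each cell's own depth they were 40.4% and 11.5%, and 39.9% and 12.7%, and cells with a Slco1c1 UMI then also differ in total UMIs. Cells of a library share its free RNA, and no test was made over cells. The class also joins clusters that differed in both genes. The ependymal-like cluster 21 and cluster 5 were below clusters 3 and 4 in Slco1c1 and in Dio2, in both libraries. The part of this mixture in the shares was not tested.

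Thra, the alpha receptor gene, lies at chr11:98740638-98769006 on the plus strand (ENSMUSG00000058756), with 4 coding transcripts and with Nr1d1 on the opposite strand over its end. Its products include the hormone-binding receptor and a splice form that does not bind hormone, and counts per gene do not separate them. It was measured in every class. Oligodendrocyte-like cells had 552 and 480 CPM, neuron-like cells 350 and 268, OPC-like cells 288 and 266, mural-like cells 240 and 238, and neuroblast-like cells 236 and 207. Astrocyte-like cells had 181 and 146 CPM and endothelial-like cells 169 and 177. The immune classes were lowest, at 73.3 and 43.5 CPM in macrophage-like and 38.2 and 25.5 CPM in microglia-like cells. The oligodendrocyte-like values overlapped with those of no other class. The difference there was 2.23 ± 0.10 (edgeR adjusted p = 3.0e-12), and smaller in neuron-like (0.62), mural-like (0.46) and OPC-like cells (0.31). Microglia-like cells were lower by -2.30 ± 0.15 (edgeR adjusted p = 4.7e-10) and macrophage-like cells by -1.56 ± 0.18 (edgeR adjusted p = 3.0e-06). In astrocyte-like (-0.10), endothelial-like (0.07) and neuroblast-like cells (0.26) the difference did not pass the test. The OPC-like call was lost without the replicate block (edgeR adjusted p = 0.16) and with resolution 0.32 (0.057). It was also lost with under 20% mitochondrial UMIs (edgeR adjusted p = 0.16) and in thinned cells (0.22).

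Oligodendrocyte-like cells exceeded neuron-like cells in Thra by 1.43 ± 0.16 (edgeR adjusted p = 5.9e-07). The size depended on the scaling, and was 0.74 by library sizes (adjusted p = 0.00045) and 0.96 by DESeq2 (adjusted p = 3.9e-10). In cells with under 20% mitochondrial UMIs, clustered anew, the neuron-like mean was 673 CPM, the highest of all classes, and the fitted difference of 0.24 did not pass (edgeR adjusted p = 0.15). That neuron-like cluster held 1113 cells in place of 642, so it was not the same set of cells. Bmp4, a marker of new oligodendrocytes, was among its 10 leading genes. The part of the added cells in the Thra value was not tested. From neuron-like cells down to astrocyte-like cells no neighbours in the order of levels passed, except neuron-like against OPC-like cells by DESeq2 (0.50, adjusted p = 0.0038). Astrocyte-like cells stood above macrophage-like cells by 1.30 ± 0.21 (edgeR adjusted p = 6.6e-05), and these above microglia-like cells by 0.66 ± 0.22 (edgeR adjusted p = 0.045).

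Along the oligodendrocyte lineage, Thra was highest in the cluster of new oligodendrocyte-like cells, which carried Bmp4, Gpr17, Enpp6 and Bcas1, markers of cells that have just left the precursor state. That cluster had 1123 and 888 CPM, where OPC-like cluster 13 had 295 and 275 CPM. The next highest oligodendrocyte-like clusters had 696 and 537 CPM (cluster 17) and 492 and 473 CPM (cluster 2), and the mature oligodendrocyte-like cluster 12 had 419 and 401 CPM. The level was therefore highest between precursors and mature cells in both libraries, with no overlap between these clusters within either library. A further cluster of shallow cells (cluster 6), with median totals of 2542 and 2510 UMIs, a median of 23.0% mitochondrial UMIs and mitochondrial genes among those that led it, had 275 and 187 CPM. In the neuroblast-like class, the progenitor-like cluster with Mki67 and Top2a, genes of dividing cells, had 143 and 128 CPM, below the 355 and 347 CPM of neuroblast-like cluster 10. Clusters were made after the libraries were joined, and these values are given with no test. At 1000 UMIs per cell, 35.7% and 34.6% of oligodendrocyte-like cells held a UMI of Thra and 4.32% and 2.79% of microglia-like cells.

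**Figure D3:**
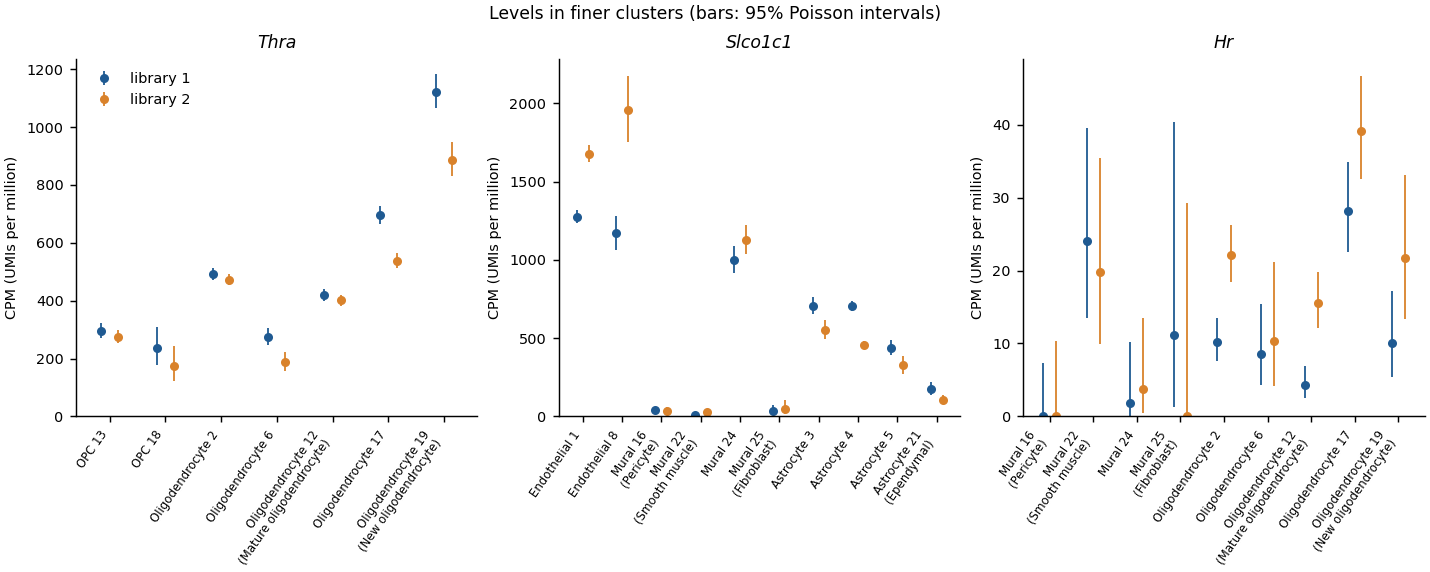
Level of Thra, Slco1c1 and Hr in finer clusters, in CPM with a point for each library. Thra is shown for OPC-like and oligodendrocyte-like clusters, Slco1c1 for endothelial-like, mural-like and astrocyte-like clusters, and Hr for mural-like and oligodendrocyte-like clusters. The cluster of new oligodendrocyte-like cells has the highest Thra level (1123 and 888 CPM), and mural-like cluster 24 the highest Slco1c1 level outside the endothelial-like class (998 and 1126 CPM).

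Thrb, the beta receptor gene, lies at chr14:17660261-18038090 on the plus strand (ENSMUSG00000021779), with Gm48320, Gm24140 and Gm48321 on the opposite strand. Neuron-like cells had 43.3 and 42.3 CPM from 67 and 53 UMIs, and astrocyte-like cells 33.0 and 37.1 CPM from 154 and 173 UMIs. OPC-like cells had 26.7 and 21.3 CPM and mural-like cells 8.63 and 11.4 CPM. The other 5 classes were at 5.67 CPM or less. The difference was 2.74 ± 0.26 in neuron-like cells (edgeR adjusted p = 5.2e-08), 2.71 ± 0.21 in astrocyte-like cells (edgeR adjusted p = 4.8e-09) and 1.66 ± 0.28 in OPC-like cells (edgeR adjusted p = 3.2e-05). Both neuron-like values lay above the astrocyte-like ones, but the fitted difference was near 0 and did not pass (0.02 ± 0.27, edgeR adjusted p = 0.97). It was 0.29 by library sizes (edgeR adjusted p = 0.37) and 0.24 by DESeq2 (adjusted p = 0.60). With under 20% mitochondrial UMIs the value was -1.07 (edgeR adjusted p = 0.0038), again for the enlarged neuron-like cluster of 1113 cells with Bmp4 among its leading genes. The part of the added cells in this value was not tested. Astrocyte-like cells exceeded OPC-like cells by 0.94 ± 0.27 (edgeR adjusted p = 0.0095), a call lost with library sizes alone (0.54, adjusted p = 0.10). OPC-like cells exceeded mural-like cells (0.89, not past the threshold by DESeq2) and these endothelial-like cells (1.41), and from there down no neighbours passed, except neuroblast-like against oligodendrocyte-like cells with library sizes (0.93, adjusted p = 0.036). Oligodendrocyte-like cells, the class with most Thra, were at 1.37 and 1.47 CPM of Thrb and lower by -1.66 ± 0.49 (edgeR adjusted p = 0.0044). Microglia-like cells were lower in both receptors, by -1.73 ± 0.53 for Thrb (edgeR adjusted p = 0.0056). The neuroblast-like call (-1.11, edgeR adjusted p = 0.036) was lost with library sizes alone (adjusted p = 0.060). It was also lost with resolution 0.32 (edgeR adjusted p = 0.24), doublets kept (0.14), at least 500 genes (0.14) and under 20% mitochondrial UMIs (0.33). The same held with pathway genes in the clustering (edgeR adjusted p = 0.21) and in thinned cells. At 1000 UMIs per cell, Thrb was seen in 2.71% and 3.66% of astrocyte-like, 3.47% and 2.69% of OPC-like and 1.48% and 2.40% of neuron-like cells. Neuron-like cells, highest by level, were thus not highest by share. In oligodendrocyte-like cells the share was 0.0872% and 0.258%, and most cells gave no information on Thrb.

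Klf9, the hormone-induced transcription factor, lies at chr19:23141226-23168134 on the plus strand (ENSMUSG00000033863) and holds the microRNA gene Mir1192. Astrocyte-like cells had 526 and 388 CPM, mural-like cells 479 and 413 CPM, and endothelial-like cells 453 and 418 CPM. These 3 classes overlapped with each other and lay above every other class. Neuron-like cells had 303 and 217 CPM, oligodendrocyte-like cells 304 and 182 CPM, and OPC-like cells 127 and 109 CPM. Macrophage-like cells had 51.7 and 43.5 CPM, neuroblast-like cells 41.7 and 26.7 CPM, and microglia-like cells 24.9 and 10.6 CPM. The difference was 1.91 ± 0.12 in astrocyte-like cells (edgeR adjusted p = 7.9e-10), 1.91 ± 0.12 in endothelial-like cells (edgeR adjusted p = 7.6e-10) and 1.81 ± 0.13 in mural-like cells (edgeR adjusted p = 2.9e-09). It was 1.32 in oligodendrocyte-like and 0.68 in neuron-like cells, which also passed. It was -2.91 ± 0.19 in microglia-like, -2.42 ± 0.18 in neuroblast-like, -1.58 ± 0.23 in macrophage-like and -0.72 ± 0.16 in OPC-like cells. The OPC-like call was lost with library sizes alone (-0.25, adjusted p = 0.19).

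The 3 highest classes of Klf9 did not differ from each other, and endothelial-like cells exceeded neuron-like cells by 1.10 ± 0.19 (edgeR adjusted p = 9.5e-05). Astrocyte-like and endothelial-like cells each exceeded oligodendrocyte-like cells by 0.53 (edgeR adjusted p = 0.019 and 0.020). For mural-like against oligodendrocyte-like cells the difference did not pass (0.44 ± 0.18, edgeR adjusted p = 0.052). Neuron-like and oligodendrocyte-like cells had no settled order. Neuron-like cells had the higher mean CPM but were lower in the TMM fit (-0.56 ± 0.19, edgeR adjusted p = 0.015), and the difference was 0.12 by library sizes (adjusted p = 0.59) and -0.09 by DESeq2 (adjusted p = 0.75). Oligodendrocyte-like cells stood above OPC-like cells by 1.81 ± 0.19 (edgeR adjusted p = 5.7e-07), and OPC-like above macrophage-like cells (0.77), whereas neuroblast-like against microglia-like cells did not pass (0.44 ± 0.22, edgeR adjusted p = 0.086). This pair passed with library sizes (0.95, adjusted p = 0.00093) and by DESeq2 (0.68, adjusted p = 0.013). Unlike Slco1c1, Klf9 was high in all mural clusters, with 554 and 490 CPM in pericyte-like, 397 and 300 CPM in smooth muscle-like, 341 and 310.0 CPM in fibroblast-like cells and 547 and 502 CPM in cluster 24. At 1000 UMIs per cell 36.7% and 31.4% of mural-like, 34.5% and 27.7% of astrocyte-like and 3.04% and 1.34% of microglia-like cells held a UMI of it.

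Hr, the corepressor hairless, lies at chr14:70552212-70573548 on the plus strand (ENSMUSG00000022096) and gave few UMIs in most classes. Oligodendrocyte-like cells had 12.2 and 23.3 CPM from 177 and 350 UMIs. Mural-like cells had 9.71 and 8.26 CPM from 18 and 13 UMIs, astrocyte-like cells 6.01 and 6.87 CPM, and OPC-like cells 5.23 and 5.32 CPM. The other 5 classes were at 3.99 CPM or less. Both oligodendrocyte-like values were above those of every other class, although they differed from each other more than most. The difference was 2.82 ± 0.24 in oligodendrocyte-like cells (edgeR adjusted p = 6.3e-09), 1.29 ± 0.42 in mural-like cells (edgeR adjusted p = 0.0077) and 0.83 ± 0.35 in astrocyte-like cells (edgeR adjusted p = 0.018), the last lost with under 20% mitochondrial UMIs (0.59, edgeR adjusted p = 0.081). Microglia-like cells were lower by -2.09 ± 0.59 (edgeR adjusted p = 0.00076), with 3 UMIs in each library. Endothelial-like cells were lower by -1.55 ± 0.62 (edgeR adjusted p = 0.022), with 6 UMIs in library 1 and 0 in library 2. Oligodendrocyte-like cells exceeded mural-like cells by 1.35 ± 0.38 (edgeR adjusted p = 0.0044), which did not pass with library sizes (0.89, adjusted p = 0.053) or DESeq2 (1.17, adjusted p = 0.055). It also did not pass with those cells left out of the mural-like class (0.69, edgeR adjusted p = 0.17). No other neighbours in the order differed.

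Hr was uneven within these classes. Oligodendrocyte-like cluster 17 had 28.2 and 39.2 CPM, and the mature oligodendrocyte-like cluster 4.28 and 15.6 CPM. In the mural-like class, the smooth muscle-like cluster had 24.0 and 19.8 CPM, whereas no UMI was found in the pericyte-like cluster, where 3 UMIs would have been 5.92 and 8.40 CPM.

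Over all pairs of classes, 51.3% of the comparisons of all genes passed. Of 36 pairs each, Klf9 passed in 31, Thrb in 25, Thra in 24, Slco1c1 in 23, Hr in 18 and Dio2 in 12. Of the 8 pairs of neighbours in the order of levels, Klf9 passed in 5, Thra and Thrb in 3 each, Slco1c1 in 2, and Dio2 and Hr in 1 each.

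The genes whose levels ran most like each member were found from Pearson's r of log2(CPM + 10) over the 18 sums of 2 libraries and 9 classes, among 12281 genes. The sums share libraries and depth, so r is a description and carries no p. Slco1c1 was most like Id3 (0.98) and Hspb8 (0.97), both highest in endothelial-like cells. Dio2 was most like Ntsr2 (0.99), Aldoc (0.99) and Slc25a18 (0.98), highest in astrocyte-like cells, and Ntsr2 and Aldoc are among the markers that named this class. Thra was most like Dmwd (0.95), Lrrc42 (0.94) and Schip1 (0.93), highest in oligodendrocyte-like cells. Thrb was most like Ntm (0.97), Actr3b (0.95) and Fndc5 (0.94), of which Ntm was highest in astrocyte-like and the others in neuron-like cells. Klf9 was most like Lysmd2 (0.92), Syne1 (0.90) and Selenom (0.88), which were highest in 3 different classes. Hr was most like Snx33 (0.90), Sept8 (0.90) and Gsn (0.90), highest in oligodendrocyte-like cells.

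Of the 33 other genes of the pathway, 30 were tested, and Dio1, Dio3 and Ttr were too low. Of their 270 comparisons 162 passed, 76 higher and 86 lower, where over all genes 68628 of 136269 comparisons passed, and 153 of the 162 had the same sign with library sizes alone. The 9 that turned were small differences of Rxrb and of corepressor and coactivator genes. By class these counts can be read against the shares of all genes given above for the members. Microglia-like cells, in which every member was lower, had 16 of the 30 higher and 5 lower, astrocyte-like cells 7 and 9, endothelial-like cells 10 and 9, and neuron-like cells 11 and 12. Oligodendrocyte-like cells had 6 higher and 14 lower, OPC-like cells 5 and 13, mural-like cells 8 and 8, neuroblast-like cells 8 and 9, and macrophage-like cells 5 and 7.

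Among the membrane transporters, Slc7a5, a large neutral amino acid transporter that also carries thyroid hormone, had 357 and 942 CPM in endothelial-like cells (5.79). Its partner chain Slc3a2 had 851 and 838 CPM there (2.25). Slc7a5 was also higher in mural-like cells (3.46), and Slc3a2 in astrocyte-like (1.11), microglia-like (0.95) and mural-like cells (0.81). Microglia-like and macrophage-like cells were both higher in Slc7a8 and Slc16a10, and Slc7a8 was also higher in neuron-like cells (1.79). Slc7a8 reached 188 and 241 CPM in microglia-like cells (5.17), and Slc16a10 reached 21.7 and 34.8 CPM in macrophage-like cells (4.43). Of the genes acting on the stability of the type 2 deiodinase, Wsb1, part of a ubiquitin ligase for it, was higher in microglia-like (1.54), neuroblast-like (0.63) and astrocyte-like cells (0.37). The deubiquitinases Usp33 and Usp20 were higher in neuron-like cells (0.90 and 0.75), and Usp20 more so in oligodendrocyte-like cells (1.27). Crym, which encodes the cytosolic hormone-binding protein μ-crystallin, had 1039.6 and 1312 CPM in astrocyte-like cells (5.55).

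The retinoid X receptors, partners of the thyroid hormone receptors, differed by class. Rxrg was higher in neuron-like cells, at 54.9 and 59.1 CPM (3.80), and in OPC-like cells (1.87), which were also higher in Thrb. Rxra was higher in macrophage-like (1.85), microglia-like (1.66) and mural-like cells (0.69). Rxrb was higher in microglia-like (1.02) and oligodendrocyte-like cells (0.48), the latter not with library sizes alone (0.04, adjusted p = 0.90). Of the coactivators, Ncoa1 was higher in astrocyte-like cells (1.04), whereas Ncoa3 was higher in microglia-like (1.80) and lower in astrocyte-like cells (-1.45).

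The list of 6 other hormone-responsive genes was chosen with earlier results of these data known, so its counts are descriptions. Of these 6, 5 were highest in neuron-like cells, where 26.2% of all genes tested were called higher. Nrgn, a calmodulin-binding protein of dendrites, had 1521 and 1298 CPM there (4.97), Rasd2, a striatal GTPase also called Rhes, 163 and 149 CPM (4.34), and Camk4, a calmodulin-dependent kinase, 91.1 and 72.7 CPM (4.38). Homer1 had 220 and 167 CPM (3.30) and Reln 104 and 106 CPM (6.18). Thrsp, the exception, was highest in astrocyte-like cells with 229 and 174 CPM (4.02), and was also higher in microglia-like cells (2.67). Of the members, Klf9 and Hr, which also respond to the hormone, were not highest in neuron-like cells.

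**Figure D4:**
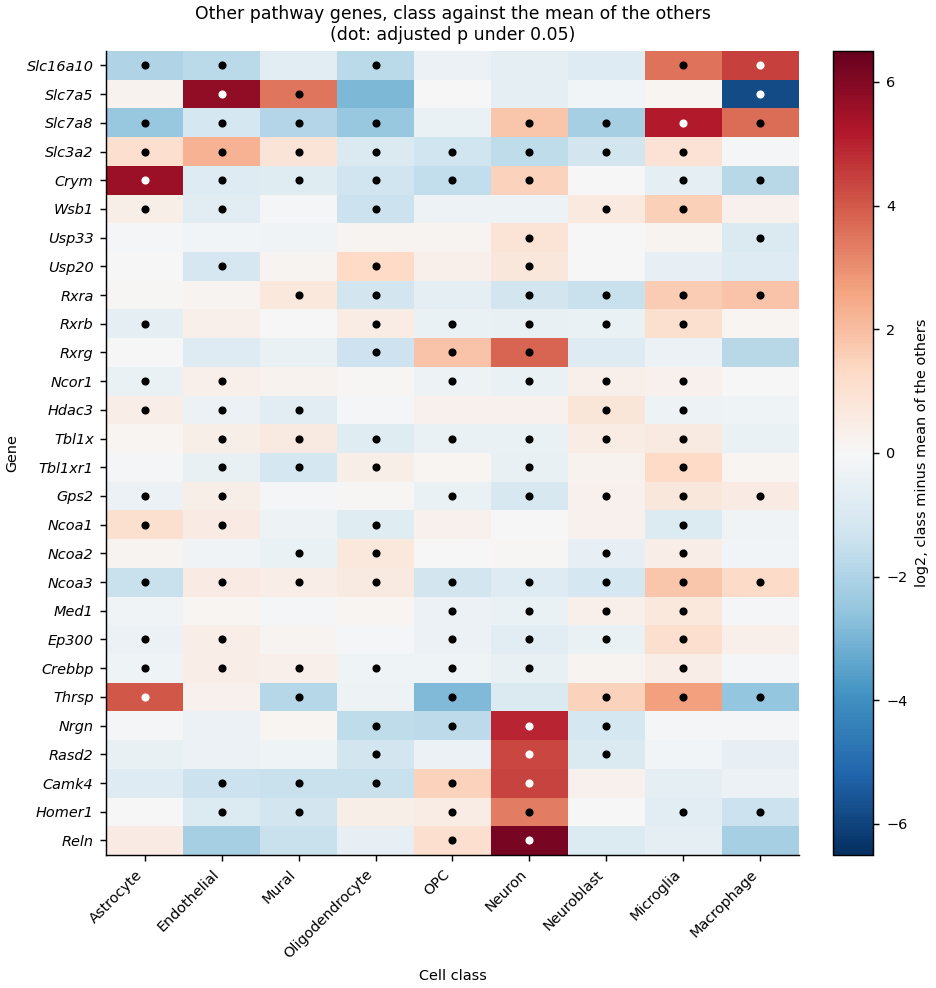
Log2 difference of tested genes of the pathway between a class and the mean of the other classes, grouped by role, as a heat map with genes in rows and classes in columns. Slc7a5 (5.79) stands out in the endothelial-like column, Crym (5.55) and Thrsp (4.02) in the astrocyte-like column and Reln (6.18) in the neuron-like column.

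The study set astrocytes with Crym against those without. Crym+ cells were those in which the natural log of 1 plus Crym UMIs per 10000 UMIs was above 0.25. A split at 1 or more Crym UMIs gave the same result, and Crym- cells held no Crym UMI in either library. The split thus separates cells in which Crym was detected from cells in which it was not. Library 1 held 525 Crym+ and 869 Crym- astrocyte-like cells, and library 2 held 447 and 587. Crym+ cells were deeper, with median totals of 2502 and 5354 UMIs beside 1501 and 2139 UMIs. None of the 5 members tested passed, where 10.0% of 6094 genes did in the same fit with edgeR, that is 612 genes, beside 3 without the replicate block and 51 by DESeq2. At an unadjusted p under 0.05 there were 2 of 5, Slco1c1 and Dio2, and DESeq2 called 0.

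Slco1c1 had 607 CPM in both groups of library 1, and 495 CPM in Crym+ beside 344 CPM in Crym- cells of library 2 (0.24 ± 0.09, edgeR adjusted p = 0.080). For Dio2, Crym+ cells stood at 112 CPM and Crym- cells at 184 CPM in library 1, but at 137 and 120 CPM in library 2 (-0.29 ± 0.12, edgeR adjusted p = 0.13). The libraries went opposite ways, with -0.62 in library 1 and 0.26 in library 2, so that Dio2 had no common direction. Thra had 183 and 179 CPM in library 1 and 138 and 154 CPM in library 2 (-0.07 ± 0.10, edgeR adjusted p = 0.71). Thrb had 35.7 and 30.4 CPM, and 35.9 and 38.4 CPM (0.04 ± 0.17, edgeR adjusted p = 0.92). Klf9, the target, had 557 and 495 CPM, and 384 and 392 CPM (0.06 ± 0.08, edgeR adjusted p = 0.72). Hr was below the detection filter, with 12 and 16 UMIs in library 1 and 7 and 25 UMIs in library 2. The calls for Slco1c1 and Dio2 depended on the genes and cells used. Slco1c1 passed with no filter on genes (0.32, edgeR adjusted p = 0.0015) and between cells matched on total UMIs (0.26, edgeR adjusted p = 0.033). Dio2 passed as lower in cells with under 20% mitochondrial UMIs (-0.39, edgeR adjusted p = 0.012).

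Of the 19 pathway genes tested between these groups, Crym was higher, which the split itself set, and 4 were lower, of which 3 are described. Thrsp stood at 171 CPM (Crym+) and 286 CPM (Crym-) in library 1 and at 140 and 211 CPM in library 2 (-0.68 ± 0.09, edgeR adjusted p = 4.2e-07). Wsb1 had 68.9 and 114 CPM, and 110 and 148 CPM (-0.57 ± 0.11, edgeR adjusted p = 0.00014). Both were lower in Crym+ cells in each library. Neither passed without the replicate block (edgeR adjusted p = 0.81 for Thrsp and 0.84 for Wsb1), and Wsb1 also did not pass by DESeq2 (adjusted p = 0.40). Nrgn, a neuronal gene, was lower by -0.62 ± 0.14 (edgeR adjusted p = 0.0012), but between cells matched on total UMIs the value was 0.03 (edgeR adjusted p = 0.96). Markers of some other classes also differed between these groups. Summed oligodendrocyte markers, 7 genes, came to 1579 CPM (Crym+) and 2740 CPM (Crym-) in library 1, and to 571 and 668 CPM in library 2. Summed ependymal markers, 5 genes, had 239 and 480 CPM, and 151 and 424 CPM. Microglia markers, 6 genes, had 224 and 296 CPM, and 142 and 213 CPM. Neuron markers, 11 genes, had no common direction, with 273 and 341 CPM in library 1 and 210 and 200 CPM in library 2. Endothelial markers, 8 genes, differed little, with 150 and 165 CPM, and 43.3 and 47.9 CPM. Their part in the lower genes was not tested.

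**Figure D5:**
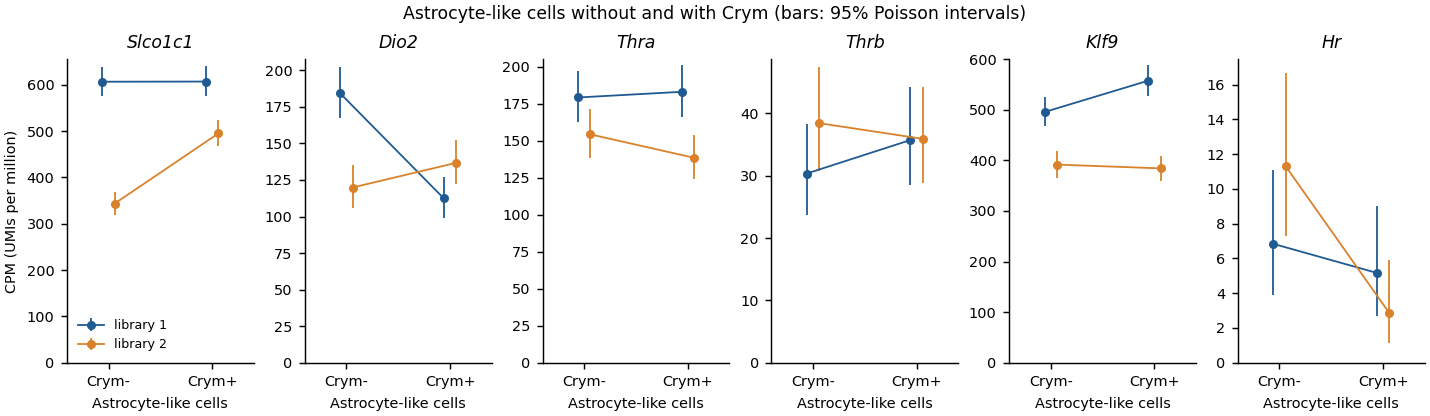
Level of the 6 genes in Crym+ and Crym- astrocyte-like cells, in CPM with a line joining both groups of a library. The lines of Dio2 cross, with 112 (Crym+) and 184 CPM (Crym-) in library 1 and 137 and 120 CPM in library 2. Klf9 had 557 and 495 CPM in library 1 and 384 and 392 CPM in library 2.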

How the data were processed

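Striatal cells of untreated mice were profiled in 2 libraries with 10x 3′ chemistry. Per the file headers and the labels, the authors aligned reads and counted UMIs with Cell Ranger 4.0 on mm10, and deposited a matrix of raw counts per gene and barcode for each library. Barcodes with under 300 genes were left out. Doublets were marked with scrublet in scanpy 1.11.5, in 1.67% and 2.83% of barcodes. The 6 members and 33 pathway genes were removed before clustering, which used Seurat 5.3.0 with 2000 variable genes, 30 components and a resolution of 0.08, and 0.8 for finer clusters. Clusters were named where at least 3 markers were raised by 2-fold, a threshold chosen after the counts were seen. The members, markers and lists were chosen with earlier results of these data known.

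Counts were summed per library and class, so that cells were not replicates, and 96 erythroid-like cells were not used. The sums held 459516 to 15003095 UMIs. They were tested with edgeR 4.0.16 (quasi-likelihood, TMM, filterByExpr, library as a block), each class against the mean of the others and in pairs, at an adjusted p of 0.05. The libraries are the block because all classes of a library came from the same suspension. The Crym threshold of 0.25 and the filter on genes found in 10% of cells of either group were taken from the study's methods. Intervals are exact Poisson or binomial at 95% and cover counting error only. With 2 libraries the spread has few degrees of freedom. Shares were computed with each cell thinned to 1000 UMIs, without shallower cells. The genes named were the members, the pathway list and the 3 genes most like each member, and results on some of them are not reported here. Alternatives were library-size scaling, DESeq2 1.42.0, no block, no gene filter, other cell filters and clustering, thinning, and each library alone. The tests were checked on simulated counts. Positions are from GENCODE M21 (GRCm38) and promoter sequences from RefSeq (GRCm38.p6).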

Additional observations from a re-analysis of the deposited data

How the results depend on the processing

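Of the 37 class calls of the members, all kept their direction with library sizes alone, with DESeq2, without the replicate block, with no gene filter and with either library left out. With cells thinned to 1000 UMIs, 32 of 32 tested kept it, and with resolution 0.32 or without cells led by another class, a choice made after seeing the data, 36 of 37 did. Leaving out cells led by another class changed member levels in astrocyte-like and mural-like cells only. In library 1, Slco1c1 went from 607 to 649 CPM in astrocyte-like and from 310 to 23.9 CPM in mural-like cells. Levels in endothelial-like and OPC-like cells were unchanged, so their clusters led by haemoglobin genes stayed in. The number of calls ran from 26 (thinned) to 42 (no gene filter). Under at least 1 alternative the call itself was lost for Slco1c1 in macrophage-like, Dio2 in microglia-like and oligodendrocyte-like, Thra in mural-like and OPC-like, Thrb in microglia-like, neuroblast-like and oligodendrocyte-like, Klf9 in OPC-like and Hr in astrocyte-like cells. The direction turned for Slco1c1 in mural-like cells, at -0.48 with resolution 0.32 and -0.50 without cells led by another class. Pathway calls fell from 162 to 76 in thinned cells, where fewer UMIs were tested, and all 162 kept their direction with either library left out. For all genes, thinning lowered the calls in each class, for example from 8119 to 3907 in astrocyte-like and from 4972 to 1738 in macrophage-like cells.

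The highest class by level was the same for 4 members with under 20% mitochondrial UMIs (Thra and Thrb moved, with the neuron-like cluster at 1113 cells in place of 642 and Bmp4 among its leading genes), for 4 in thinned cells (Thrb and Klf9), and for 5 to 6 with a library left out. By share of cells it was the same for 5 at the cells' own depth and for 4 to 6 with a library left out. Thrb in neuron-like against astrocyte-like cells was -0.023 with no gene filter, -0.033 without library 1 and 0.13 without library 2, -0.11 with doublets kept, -0.022 with at least 500 genes, -1.07 with under 20% mitochondrial UMIs, -0.031 with pathway genes in the clustering and -0.90 in thinned cells. Klf9 in astrocyte-like against mural-like cells was -0.040 without library 1 and 0.14 without library 2. Dio2 beside Slco1c1 differed by 4.15 percentage points on average, 27.99 at the cells' own depth and 3.12 to 5.17 with a library left out.

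Between Crym groups 0 members passed, but 1 did with no gene filter (Slco1c1), with under 20% mitochondrial UMIs (Dio2), without cells led by another class (Dio2, -0.39, edgeR adjusted p = 0.0068) and with UMI totals matched (Slco1c1). Slco1c1 was -0.074 in thinned cells, and Dio2 0.26 without library 1 and -0.62 without library 2. Thra was 0.014 with no gene filter, 0.12 without library 2, -0.088 without library 1 and 0.023 with UMI totals matched. Thrb was -0.029 without library 1 and 0.31 without library 2, -0.028 with doublets kept, -0.045 with under 20% mitochondrial UMIs and -0.25 with UMI totals matched. Klf9 was -0.011 with resolution 0.32 and without cells led by another class, -0.014 with pathway genes in the clustering, -0.018 with doublets kept, -0.033 with at least 500 genes, -0.029 with under 20% mitochondrial UMIs, and -0.073 with UMI totals matched. Nrgn was 0.035 with UMI totals matched. Genes called in all were 612, and 3 without the replicate block, 986 with no gene filter, 51 with DESeq2, 362 with resolution 0.32, 389 with at least 500 genes, 385 with pathway genes in the clustering, 207 in thinned cells and 282 with UMI totals matched. The causes were not tested. With 2 libraries and few UMIs of Hr and Thrb, low classes of these genes cannot be ordered.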
